A study of Mus musculus with 40 samples.

Results

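Genes of the endoplasmic reticulum (ER) stress response, 10 in number, were followed in hearts in which cardiomyocytes were made to secrete interleukin 11. They were *Hspa5*, *Hsp90b1*, *Pdia4*, *Calr*, *Dnajb9*, *Creld2*, *Xbp1*, *Atf4*, *Ddit3* and *Trib3*, chosen by gene symbol, and all 10 were found among the 17646 genes listed for males and the 17223 listed for females. All 10 also passed the filter on low values. RNA-seq had been made from polyadenylated RNA of heart, described in the text of the study as left ventricle. The series holds 40 libraries, 1 per heart, with the sexes tabulated and scaled separately, so that no test was made across the sexes.

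CM-Il11-Tg mice were heterozygous for *α-MHC-MerCreMer*, a tamoxifen-activated Cre recombinase driven by a cardiomyocyte promoter, and for *Rosa26-Il11*, a mouse *Il11* transgene that Cre switches on. Tamoxifen was injected intraperitoneally from 8 weeks of age, at 20 mg/kg for 5 days, and hearts were taken after 1, 3 or 6 weeks. Controls, labelled WT, were tamoxifen-treated littermates, matched in age per the methods, that carried *α-MHC-MerCreMer* without *Rosa26-Il11*. A second reference group, called uninduced here and T0wk in the tables, was of CM-Il11-Tg mice without tamoxifen. Cre was thus shared by all groups, and tamoxifen by all but the uninduced. The age of the uninduced mice at collection, the week to which the age of the controls was matched, and the interval between tamoxifen and collection in the controls, were not given in the sources used here. The parental strains were C57BL/6N and C57BL6/J. Each group had 4 hearts of each sex, except the male control and male 6 week groups with 3 hearts. In these, replicate 2 was left out, because title and description of 2 male libraries name control and 6 weeks in opposite order, which leaves 38 libraries in the comparisons.

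The ER folds proteins that a cell secretes or sets in its membranes. When unfolded protein builds up there, the sensors IRE1, PERK and ATF6 start the unfolded protein response. IRE1 splices *Xbp1* mRNA to give an active transcription factor, cleaved ATF6 and spliced XBP1 raise transcription of chaperones, and PERK slows translation by phosphorylating eIF2α, which favours translation of *Atf4*. ATF4 in turn drives *Ddit3* and *Trib3*. Fibroblasts and plasma cells, which secrete much protein, use the same machinery, and the heart responds to pressure load and ischaemia with it. The values here are gene-level read counts, so that neither the splicing of *Xbp1* nor the translation of *Atf4* is seen in them.

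The libraries had 16663513 to 65333832 reads on listed genes in males and 19147947 to 30929192 in females. Values are the deposited CPM (reads scaled by the authors with 1 factor per library), and differences are log2 fold changes of CPM + 0.5 from limma, with Benjamini-Hochberg adjustment over the 16931 genes tested in males and 16956 in females. The columns did not sum to the same total. Control columns summed to 1063756 to 1193422 in males and 1181923 to 1196278 in females. Male columns summed to 817395 to 938167 at 1 week and 906746 to 1165099 at 6 weeks, and female columns to 848402 to 942588 at 6 weeks. A scaling to equal column sums was not run, and its effect on the differences was not tested. A gene was called at an adjusted p under 0.05. The labels number the hearts of a group and name no litter or batch, and the p-values measure the spread between these hearts. *Il11*, whose reads come from the endogenous gene and the transgene together, was 0 to 0.147 CPM in male and 0 to 0.166 CPM in female controls, 16.5 to 23.3 and 15.5 to 49.1 CPM in uninduced hearts, and 336 to 819 and 328 to 614 CPM after tamoxifen. The uninduced hearts were therefore not free of *Il11*. All 10 cardiomyocyte markers were listed and none was at 0 throughout.

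The promoters of 4 of the 10 genes hold the letters of the ER stress response element (ERSE), the site described for ATF6 and XBP1 at chaperone genes. The element was searched as CCAAT, any 9 bases and CCACG, on both strands, in the 300 bases from 250 before to 50 after each RefSeq start (GRCm38.p6). Each match is printed below with 20 bases on either side, 5′ to 3′ along the strand of the gene, with the 19 letters of the match in capitals. They are shown because the members that hold the element and those that do not are set beside their changes further on.
*Hspa5*, chr2:34772005-34772063, plus strand, match from base -65: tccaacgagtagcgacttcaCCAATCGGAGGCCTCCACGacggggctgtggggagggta
*Hsp90b1*, chr10:86705618-86705676, minus strand, match from base -212: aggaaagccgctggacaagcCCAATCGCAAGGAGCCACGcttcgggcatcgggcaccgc
*Hsp90b1*, chr10:86705513-86705571, minus strand, match from base -107, reversed: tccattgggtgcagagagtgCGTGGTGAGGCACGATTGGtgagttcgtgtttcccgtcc
*Calr*, chr8:84847055-84847113, minus strand, match from base -162, reversed: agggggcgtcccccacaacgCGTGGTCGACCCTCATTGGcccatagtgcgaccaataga
*Creld2*, chr15:88819500-88819558, plus strand, match from base -126, reversed: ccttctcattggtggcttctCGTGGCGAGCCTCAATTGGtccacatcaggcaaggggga

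Of all 27025 genes with a window, 37 held the same letters, or 0.137%. The windows of *Pdia4*, *Dnajb9*, *Xbp1*, *Atf4*, *Ddit3* and *Trib3* did not hold them, which says only that these letters are not in this window. ERSE-II (ATTGG, 1 base, CCACG) was in the window of none of the 10 and of 12 genes in all, or 0.0444%. The C/EBP-ATF element (TGATG, 1 base, AA), which ATF4 and CHOP are known to bind, was found in *Trib3*, on the other strand from base 15 after the start, and in 4.51% of all genes.

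In control hearts the chaperones were the most abundant of the 10 genes per length of exon. *Hspa5* (BiP, the ER Hsp70), at GRCm39 chr2:34661982-34668880 on the plus strand, had 96.6 ± 13.2 CPM per kb in males and 78.1 ± 3.45 in females (SD, n = 3 and 4). *Calr* (calreticulin, a lectin chaperone that also buffers ER calcium; chr8:85567946-85573667, minus strand) followed at 75.8 ± 5.91 and 68.2 ± 8.14 CPM per kb. The ranges of these 2 genes did not overlap in males (84.3 to 110 against 69.5 to 81.2) and did in females (75.5 to 82.8 against 61.3 to 79.8). *Hsp90b1* (GRP94, the ER Hsp90; chr10:86526073-86541446, minus strand) had 50.7 ± 4.52 and 40 ± 7.44, and *Atf4* (chr15:80139372-80141745, plus strand) had 25 ± 1.44 and 28.6 ± 3.79 CPM per kb, the pair apart in males and overlapping in females (31.1 to 48.4 against 24.3 to 33.5).

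Next came *Dnajb9* (ERdj4, a J-domain partner of BiP; chr12:44252341-44257171, minus strand) at 7.59 ± 0.384 and 7.58 ± 0.392 CPM per kb and *Xbp1* (chr11:5470606-5483027, plus strand) at 7.44 ± 1.17 and 7.68 ± 0.611, whose ranges overlapped in both sexes. *Creld2*, a secretory-pathway protein with disulfide isomerase activity (chr15:88703795-88710890, plus strand), had 5.84 ± 1.54 and 5.81 ± 0.593, and *Pdia4* (ERp72, a protein disulfide isomerase; chr6:47770077-47790462, minus strand) had 4.66 ± 1.02 and 3.79 ± 0.0769 CPM per kb. In males *Creld2* overlapped with *Xbp1* and with *Pdia4*, and in females the 3 genes were apart. *Ddit3* (CHOP, a transcription factor tied to apoptosis; chr10:127124268-127132163, plus strand) at 2.25 ± 0.267 and 2.01 ± 0.456 and *Trib3* (a pseudokinase that CHOP induces; chr2:152179337-152191958, minus strand) at 0.747 ± 0.13 and 1.04 ± 0.281 CPM per kb were the lowest. Exon lengths and positions are from GENCODE M39, another release than the one the authors counted with.

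After induction, 3 genes of the 10 rose in both sexes at 1 or more times, namely *Pdia4*, *Calr* and *Xbp1*, while *Atf4*, *Ddit3* and *Trib3* were not called against control at any time in either sex. In males none of the 10 was called higher and 1 lower at 1 week, where 18.9% of all tested genes were higher and 14.6% lower. At 3 weeks 2 were higher and 0 lower (13.2% and 8.1% of all genes), and at 6 weeks 2 higher and 0 lower (16.2% and 10.9%). In females 3 were higher at 1 week (15.3% of all genes higher, 13.1% lower), 3 at 3 weeks (16.8% and 14.5%) and 4 at 6 weeks (21.7% and 21%), and none was lower. The male counts are thus near or below the share of all genes, and the female counts at 6 weeks stand at 4 of 10 against 21.7%. The median log2 fold change of the 10 genes was 0.18, 0.16 and 0.16 at 1, 3 and 6 weeks in males and 0.18, 0.15 and 0.47 in females, while that of all tested genes lay between -0.02 and 0.02. At an unadjusted p under 0.05, and over both directions, 3, 3 and 2 of the 10 genes passed at 1, 3 and 6 weeks in males and 3, 3 and 6 in females. The same counts of calls were 1, 2 and 2 and 3, 3 and 4 by edgeR and 1, 3 and 2 and 3, 3 and 5 by DESeq2. The shares of all genes at an unadjusted p under 0.05, by edgeR or by DESeq2 are not given here or below. Counts of that kind are therefore not set against all genes.

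Hearts are mixtures of cells, and in bulk RNA fewer cells of a type cannot be told apart from less RNA per cell. The summed CPM of 10 fibroblast markers was 755 to 1195 in male and 878 to 1175 in female controls and 4930 to 6905 and 6867 to 12225 at 6 weeks. That of 10 macrophage markers went from 239 to 383 to 978 to 1386 in males and from 221 to 286 to 1199 to 1369 in females. Plasma cell markers, 8 of 10 listed in males and 10 in females, summed to 12.9 to 22.1 and 13.6 to 20.1 CPM in controls and to 60.4 to 82.4 and 66.2 to 162 at 6 weeks. The 10 cardiomyocyte markers went the other way, from 67172 to 77474 down to 43092 to 55057 CPM in males and from 49857 to 67364 down to 42102 to 50711 in females, and endothelial markers (10 of 10) from 1099 to 1259 to 723 to 951 and from 1046 to 1188 to 682 to 894. Of 10 neutrophil markers 3 were listed, at sums of 1.5 to 3.45 and 1.31 to 4.87 CPM in controls and 4.37 to 5.76 and 2.77 to 5.99 at 6 weeks. No listed marker was at 0 in every library. The part of these cell types in the results below was not tested.

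*Pdia4* showed the largest change in females. Female controls lay close together at 27.3, 27.4, 26.4 and 27.6 CPM. At 1 week the hearts had 34.4, 75.1, 49.8 and 42.7 CPM, at 3 weeks 40.9, 32.1, 43.3 and 44.3, and at 6 weeks 48.7, 64.1, 65.8 and 48.1. Every induced female heart was above every control. The log2 fold change was 0.82 (SE 0.19, adjusted p = 0.00229) at 1 week, 0.54 (SE 0.19, adjusted p = 0.0317) at 3 weeks and 1.03 (SE 0.19, adjusted p = 0.000184) at 6 weeks, the last a 2.04-fold rise. The call at 3 weeks was lost without replicate number 1, 3 or 4 (adjusted p of 0.0819 to 0.14). Male controls were more spread, at 30.6, 27.9 and 41.7 CPM. The male hearts had 42, 37.9, 41.4 and 40.2 CPM at 1 week, 52.6, 39.6, 60 and 51.9 at 3 weeks and 52.7, 47.1 and 30.6 at 6 weeks. Groups overlapped with control at each time, and the gene was called at 3 weeks (0.61, SE 0.17, adjusted p = 0.0155) and not at 1 week (0.29, adjusted p = 0.212) or 6 weeks (0.36, adjusted p = 0.163). The male call at 3 weeks was lost without replicate number 1 (0.54, adjusted p = 0.12) or 3 (0.41, adjusted p = 0.29). Without male 6 week replicate 4, the heart at 30.6 CPM, the 6 week value was 0.59 with an adjusted p of 0.0149. Replicate number 4 also held the highest male control, at 41.7 CPM. Without that number in all groups, the gene was called at 1 week (0.46, adjusted p = 0.0297) and at 6 weeks (0.76, adjusted p = 0.00398). With the 2 male libraries of conflicting labels placed by descriptions, it was called at 6 weeks (0.46, adjusted p = 0.0306). Placed by titles and tags, the 3 week call was lost (0.50, adjusted p = 0.154).

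*Calr* rose in both sexes by 6 weeks. Control males had 293, 265 and 310 CPM and control females 257, 304, 234 and 244 CPM. At 6 weeks the males had 444, 372 and 392 CPM and the females 391, 480, 422 and 417 CPM, with no overlap with control in either sex. The log2 fold change at 6 weeks was 0.48 (SE 0.13, adjusted p = 0.00873) in males and 0.72 (SE 0.14, adjusted p = 0.000268) in females, the latter 1.65-fold. At 3 weeks the males had 422, 325, 354 and 335 CPM and the females 342, 357, 341 and 304, in both sexes above the highest control. The female difference was called (0.37, SE 0.14, adjusted p = 0.0404) and the male was not (0.31, adjusted p = 0.0725). The male difference was called by DESeq2 (0.30, adjusted p = 0.0483) and without replicate number 4 (0.39, adjusted p = 0.0427). It was also called with the 2 male libraries of conflicting labels placed by descriptions (0.34, adjusted p = 0.046). At 1 week males had 328, 333, 282 and 366 CPM (0.18, adjusted p = 0.271) and females 291, 441, 332 and 296 (0.37, SE 0.14, adjusted p = 0.0438). The female call at 1 week was lost without replicate 2 of that group, the heart at 441 CPM (0.24, adjusted p = 0.192), and also when any of the 4 replicate numbers was left out of all groups (0.32 to 0.44, adjusted p of 0.0835 to 0.113). The female call at 3 weeks was lost without replicate number 1, 3 or 4 (adjusted p of 0.0965 to 0.143). The male call at 6 weeks was lost without replicate number 1 or 3 and in a fit of the 2 groups alone (adjusted p of 0.0558 to 0.0797).

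*Hsp90b1* rose in females at 6 weeks. The control females had 263, 296, 190 and 229 CPM and the 6 week females 315, 399, 336 and 381 CPM, so that all 4 were above the controls (0.56, SE 0.16, adjusted p = 0.00752). At 1 and 3 weeks the female hearts spread from 218 to 363 and from 242 to 300 CPM, and the differences of 0.19 and 0.17 were not called. In males the controls had 294, 294 and 342 CPM and the 6 week hearts 350, 313 and 129 CPM, with the lowest and the highest value of the pair of groups both at 6 weeks. The male value at 6 weeks was -0.35 (adjusted p = 0.326), and 0.10 without replicate 4.

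*Hspa5*, the most abundant of the 10 and the standard marker of the response, was not called against control at any time by limma with all hearts in 1 fit. Female controls had 437, 460, 419 and 420 CPM and 6 week females 465, 630, 502 and 681 CPM, which did not overlap, and the difference of 0.38 had a 95% confidence interval of 0.03 to 0.72 and an adjusted p of 0.0737. It was called by DESeq2 (0.41, adjusted p = 0.0398), in a fit of the 2 groups alone (adjusted p = 0.0306), without replicate number 1 (0.47, adjusted p = 0.0415) and without 1 week replicate 2 (adjusted p = 0.0394). Female hearts ranged from 372 to 688 CPM at 1 week and from 354 to 482 at 3 weeks, on both sides of the controls. In males the controls had 527, 468 and 614 CPM and the 1 week hearts 444, 306, 291 and 522, a difference of -0.49 (95% interval -0.97 to -0.01, adjusted p = 0.11). Without male 1 week replicate 4 it was -0.64 with an adjusted p of 0.0391. The male hearts had 483, 350, 570 and 521 CPM at 3 weeks and 605, 503 and 306 at 6 weeks, with differences of -0.17 and -0.23.

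*Dnajb9* was the 1 member called lower against control, in males at 1 week. Male controls had 29.8, 32.3 and 32.7 CPM, and at 1 week the hearts had 28.5, 21.5, 22.1 and 21.7 CPM, all below the controls (-0.43, SE 0.15, adjusted p = 0.0372). At 3 weeks males had 25.6, 26.5, 41.9 and 39.8 CPM, a pair of hearts below and a pair above the controls (0.05, adjusted p = 0.882), and at 6 weeks 26.9, 27.4 and 26.9 (-0.22, adjusted p = 0.35). The call at 1 week was lost in 5 of 18 alternatives, namely without replicate 4 of that group (-0.40, adjusted p = 0.0754), without replicate number 2, 3 or 4 of all groups (adjusted p of 0.0881 to 0.164) and with the replicate number as a block (adjusted p = 0.0789). Female controls of 30.3 to 33.9 CPM were spanned by the hearts at 1 week, with 26 to 47.2 CPM, and no difference of the females from control at 1, 3 or 6 weeks exceeded 0.10 in size.

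*Creld2* was not called in either sex by limma with all hearts in 1 fit. It had 14.2, 12.9, 11 and 12.9 CPM in female controls and 18.2, 24.4, 16.3 and 18.6 at 6 weeks, which did not overlap (0.58, 95% interval 0.04 to 1.11, adjusted p = 0.075). The difference was called in a fit of the 2 groups alone (adjusted p = 0.00482), without 1 week replicate 2 (0.046) and without uninduced replicate 3 (0.0279). Female hearts spread from 11.9 to 27.9 CPM at 1 week and from 12.4 to 16.3 at 3 weeks. Male values overlapped throughout, with 9.32 to 16.1 CPM in controls and 9.94 to 22.1, 11.5 to 21.7 and 11.5 to 21.7 CPM at 1, 3 and 6 weeks, and the largest male difference was 0.43 at 3 weeks (adjusted p = 0.256). Calls against control with all hearts were thus made for 2 of the 4 genes with an ERSE match, *Calr* and *Hsp90b1*, and for 3 of the 6 without one, *Pdia4*, *Xbp1* and *Dnajb9*, the last lower. These counts pool 1, 3 and 6 weeks, both sexes and both directions. In single comparisons, 13.2% to 21.7% of all tested genes were higher and 8.1% to 21% lower. The share called at least once is not given here, so the counts are only a description.

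**Figure D1:**
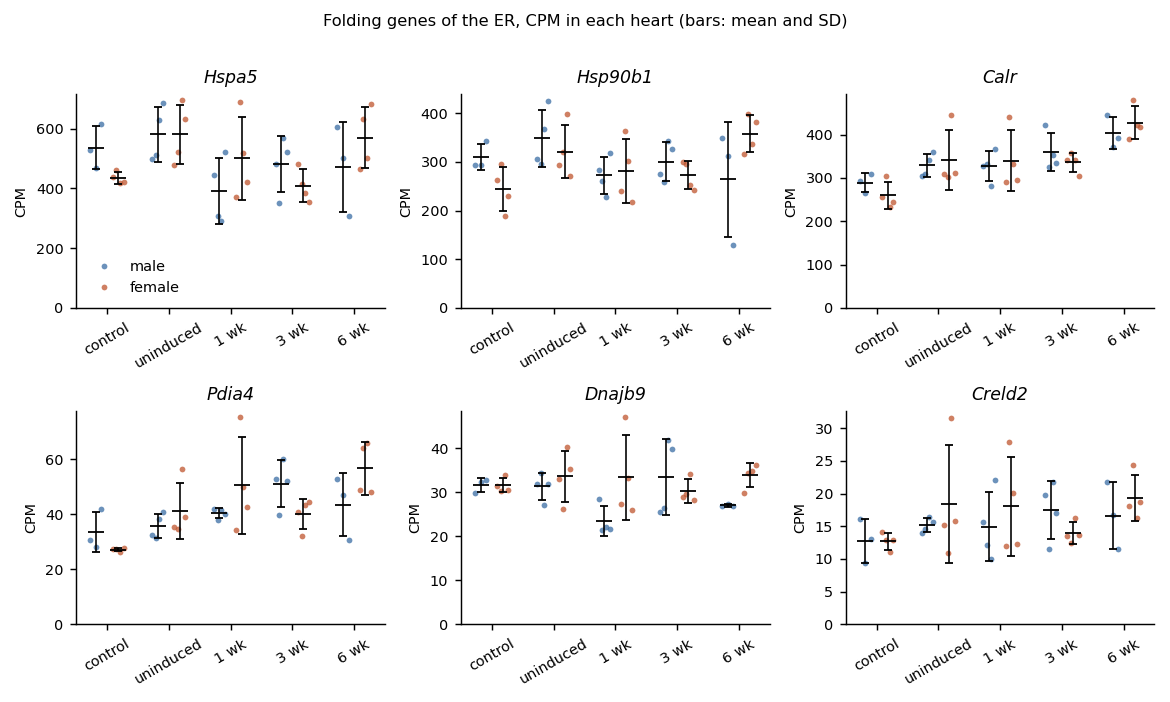
CPM of 6 ER folding genes in each heart, by group (control, uninduced, 1, 3 and 6 weeks after tamoxifen), with blue points for males, orange points for females, and bars for mean ± SD (3 or 4 hearts). The induced females lie above the female controls of 26.4 to 27.6 CPM for *Pdia4*, and the 6 week hearts of both sexes lie above control for *Calr*.

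*Xbp1* rose in both sexes. In males the controls had 57.4, 42.3 and 55 CPM, and the hearts had 73.1, 55.2, 58.4 and 76.1 CPM at 1 week, 81.9, 62.6, 76.6 and 73.1 at 3 weeks and 85.3, 76.7 and 129 at 6 weeks. The groups overlapped at 1 week only. The male difference was 0.35 at 1 week (adjusted p = 0.105), 0.51 at 3 weeks (SE 0.16, adjusted p = 0.0265) and 0.88 at 6 weeks (SE 0.17, adjusted p = 0.000702). Replicate 4 at 6 weeks, the heart at 129 CPM, held the lowest *Hsp90b1*, *Pdia4*, *Hspa5* and *Creld2* of its group, and without it the *Xbp1* difference was 0.66 (adjusted p = 0.00352). In females the controls had 48.9, 50.7, 58.2 and 55.2 CPM, against 66.3, 89, 85.1 and 83.1 at 1 week, 74.9, 67.1, 81.8 and 69.9 at 3 weeks and 80.9, 102, 86.9 and 73.1 at 6 weeks. All 12 induced females were above the controls, by 0.59 (SE 0.14, adjusted p = 0.00324), 0.46 (SE 0.14, adjusted p = 0.0173) and 0.67 (SE 0.14, adjusted p = 0.000735) on the log2 scale, the last 1.6-fold. The calls at 3 weeks were lost in females without replicate number 1 or 4 (adjusted p = 0.0928 and 0.0525) and in males without replicate number 1 or 3 (adjusted p = 0.0911 and 0.284).

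*Atf4* differed little from control on average. Its SD in males was 3.41 CPM in controls and 10.3, 10.2 and 11.4 CPM at 1, 3 and 6 weeks. In females the SD was 9 CPM in controls, 2.92 and 3.63 at 1 and 3 weeks and 16.4 at 6 weeks. Control hearts had 57.3 to 63.2 CPM in males and 57.7 to 79.4 in females, and the induced groups had 52.8 to 81.4 and 52.3 to 92.2 CPM over all times. The differences lay between 0.11 and 0.18 in males and between -0.09 and 0.08 in females, with adjusted p of 0.338 and above. *Atf4* mRNA is not the level at which PERK acts on the gene.

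*Ddit3*, the marker most often used for the apoptotic side of the response, had 14.3, 11.9 and 11.5 CPM in male and 13.6, 12.9, 8 and 10.4 in female controls. Over the 3 times the induced males had 7.08 to 18 CPM and the females 6.71 to 16.2, on both sides of the controls. Its largest difference was 0.38 in females at 3 weeks (adjusted p = 0.204), and at 6 weeks it was -0.20 in males (adjusted p = 0.568) and -0.07 in females (adjusted p = 0.816). *Trib3* was low, at 2.12 to 3 CPM in male and 2.15 to 4.31 in female controls. It had 1.97 to 4.76 CPM in induced males, with differences of 0.19 to 0.27, and 1.67 to 3.85 in induced females, with differences of -0.41, -0.37 and -0.22. None of these was called, with adjusted p of 0.154 and above. Without replicate number 3 the female difference at 1 week was -0.70 and was called (adjusted p = 0.00946).

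**Figure D2:**
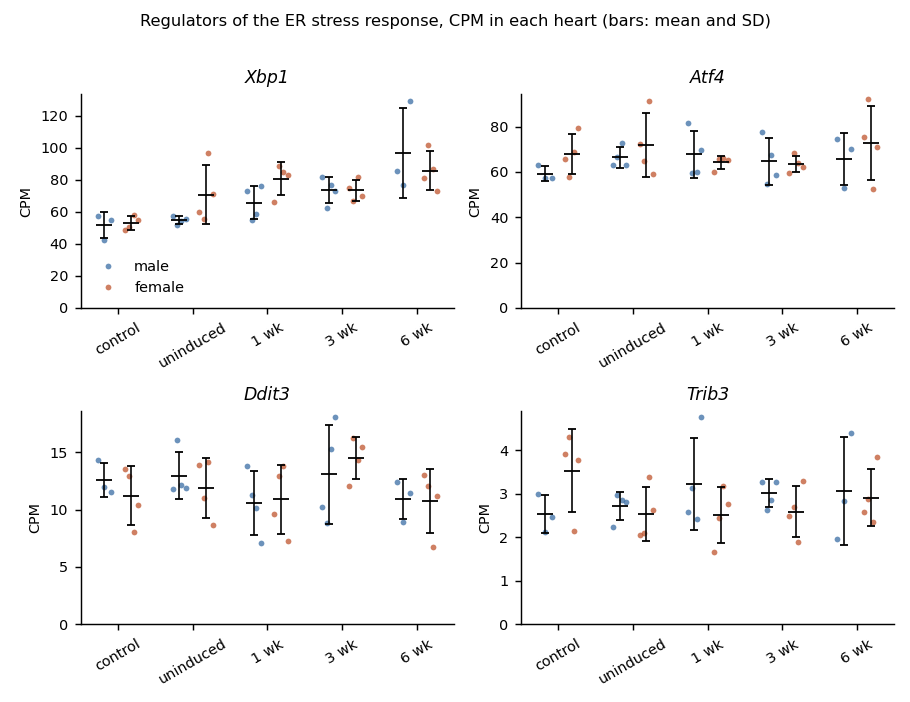
CPM of the regulators *Xbp1*, *Atf4*, *Ddit3* and *Trib3* in each heart, by group, with blue points for males, orange points for females and bars for mean ± SD (3 or 4 hearts). *Xbp1* lies above control in all 12 induced females and reaches 129 CPM in 1 male at 6 weeks, while the induced groups overlap with control for the other regulators.

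**Figure D3:**
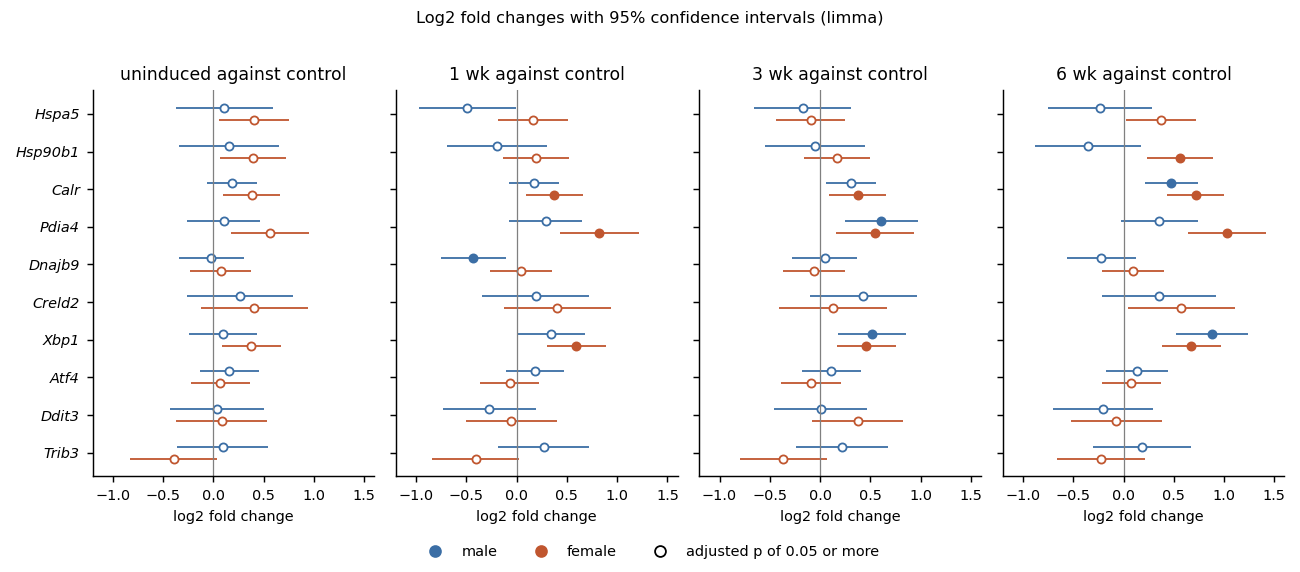
Log2 fold change against control with its 95% confidence interval for the 10 genes, in panels for uninduced hearts and 1, 3 and 6 weeks, males in blue and females in orange. Open points have an adjusted p of 0.05 or more. The filled points at 6 weeks are *Calr* and *Xbp1* in both sexes and *Pdia4* and *Hsp90b1* in females, from 0.48 to 1.03.

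Uninduced hearts, which had never met tamoxifen, gave no call among the 10 against control by limma in either sex, where calls over all genes came to 0.561% upward and 0.0354% downward for males and to 2.41% upward and 0.466% downward for females. In males none had an unadjusted p under 0.05 and neither edgeR nor DESeq2 called any. In females 5 had an unadjusted p under 0.05, edgeR called 0 and DESeq2 1 (*Pdia4*), and the median difference of the 10 genes was 0.38. *Pdia4* had 35.4, 34.6, 56.3 and 38.8 CPM in uninduced females, all above the controls (0.57, 95% interval 0.18 to 0.96, adjusted p = 0.124). *Hspa5* had 479, 521, 694 and 632 CPM, also all above the controls (0.41, adjusted p = 0.233). *Hsp90b1*, *Calr* and *Xbp1* differed by 0.40, 0.38 and 0.38, with adjusted p of 0.219, 0.155 and 0.182. Without uninduced replicate 3, the highest of its group for each of the 10 genes, these became 0.29, 0.25 and 0.22, *Pdia4* became 0.41 (adjusted p = 0.393) and *Hspa5* 0.32, and *Creld2* went from 0.41 to 0.12. In the same uninduced females 9 of the 10 macrophage markers were called higher, with sums of 408 to 555 CPM.

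Set against the uninduced instead of the control hearts, most calls were no longer made. In males *Dnajb9* was lower at 1 week (-0.41, SE 0.14, adjusted p = 0.0489, with 12.1% of all genes higher and 6.66% lower), *Pdia4* higher at 3 weeks (0.50, SE 0.16, adjusted p = 0.0376, with 10.6% and 5.46%) and *Xbp1* higher at 6 weeks (0.78, SE 0.16, adjusted p = 0.00163, with 13% and 7.4%). *Dnajb9* had 27.1 to 34.5 CPM in the uninduced males, and its call was lost in 9 of 18 alternatives, edgeR among them. The largest difference there was that of *Hspa5* (-0.60, SE 0.21, adjusted p = 0.056), not called by limma and called by DESeq2 (-0.59, adjusted p = 0.0326) and in 6 other alternatives. In females none of the 10 was called at 1 week (8.32% of all genes higher, 4.26% lower), where no unadjusted p was under 0.05 and edgeR and DESeq2 made 0 calls. At 3 weeks *Hspa5* was lower (-0.50, SE 0.17, adjusted p = 0.0423, with 10.6% and 6.15%). At 6 weeks none was called (13.7% and 9.08%), with 3 unadjusted p under 0.05 and 0 calls by edgeR and DESeq2. *Pdia4*, *Calr* and *Xbp1* differed there by 0.47, 0.34 and 0.30, with adjusted p of 0.0786, 0.0784 and 0.138.

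The female results against uninduced hearts depended in part on uninduced replicate 3, which had the highest value of its group for each of the 10 genes and 49.1 CPM of *Il11* against 15.5 to 21.4 in the other hearts of the group. Without it, *Pdia4* (0.62, adjusted p = 0.0149), *Calr* (0.47, adjusted p = 0.00778) and *Xbp1* (0.46, adjusted p = 0.00827) were called higher at 6 weeks, *Xbp1* was called higher at 1 week (0.37, adjusted p = 0.0395), and *Hspa5* at 3 weeks was no longer called (-0.41, adjusted p = 0.0944). Other choices moved these calls too. Without 1 week replicate 2, which is not in the 6 week comparison, *Pdia4* (0.47, adjusted p = 0.0315) and *Calr* (0.34, adjusted p = 0.0442) were called at 6 weeks. The *Hspa5* call at 3 weeks was also lost without replicate number 2, 3 or 4 and in a 2-group fit (adjusted p of 0.0529 to 0.251). The control and induced comparisons share no heart with uninduced replicate 3, although their errors come from the same fit.

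No member was called between the weeks after tamoxifen in either sex. Over all genes, 0.0177%, 0.165% and 0% were called in males for 3 against 1, 6 against 1 and 6 against 3 weeks, and 0.218%, 1.03% and 0% in females. Of 10 genes, 1, 2 and 1 had an unadjusted p under 0.05 in males for the same comparisons, and 0, 2 and 4 in females. DESeq2 made 1 call, *Dnajb9* in males at 3 against 1 week, and edgeR made 0. The largest female differences were between 6 and 3 weeks, 0.49 for *Pdia4* (adjusted p = 0.246) and 0.47 for *Hspa5* (adjusted p = 0.216). In males *Xbp1* differed by 0.54 between 6 and 1 weeks (adjusted p = 0.183). With 3 or 4 hearts a group, the order of the weeks was not resolved for any of the 10 genes.

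Hearts of one group often stood apart from each other for most folding genes at once. Female 1 week replicate 2 had the highest value of its group for all 6 folding genes (*Hspa5*, *Hsp90b1*, *Pdia4*, *Calr*, *Dnajb9* and *Creld2*), at 1.63 times the median of the other hearts for *Hspa5*, 1.76 times for *Pdia4* and 2.28 times for *Creld2*. The same heart was highest for 10 of 10 fibroblast markers (median ratio 1.47) and for 9 of 13 cytosolic heat shock genes (1.37). Female uninduced replicate 3 was highest for all 6 folding genes and all 4 regulators, with a median ratio of 1.42, and lowest for 8 of 10 cardiomyocyte markers (0.761).

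Among males, 3 week replicate 2 was lowest of its group for 5 of the 6 folding genes and all 4 regulators (median ratio 0.772) and for 12 of 13 cytosolic heat shock genes (0.625). Male 6 week replicate 4 was lowest for 5 of 6 folding genes and for 11 of 15 other ER chaperones (0.792), but highest for *Xbp1*, and its *Il11* was 819 CPM against 407 to 485 in the other hearts of that group. In that heart *Xbp1* was at 1.59 times the median of the other hearts. *Hspa5*, *Hsp90b1*, *Pdia4* and *Creld2* were at 0.55, 0.39, 0.61 and 0.60 times it, while *Calr* and *Dnajb9* were close to it (0.96 and 0.99). Its column summed to 1165099, against 906746 and 962431 in the others of its group, and the part of this was not tested. The hearts are the replicates of the tests, and this spread is the error in them.

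**Figure D4:**
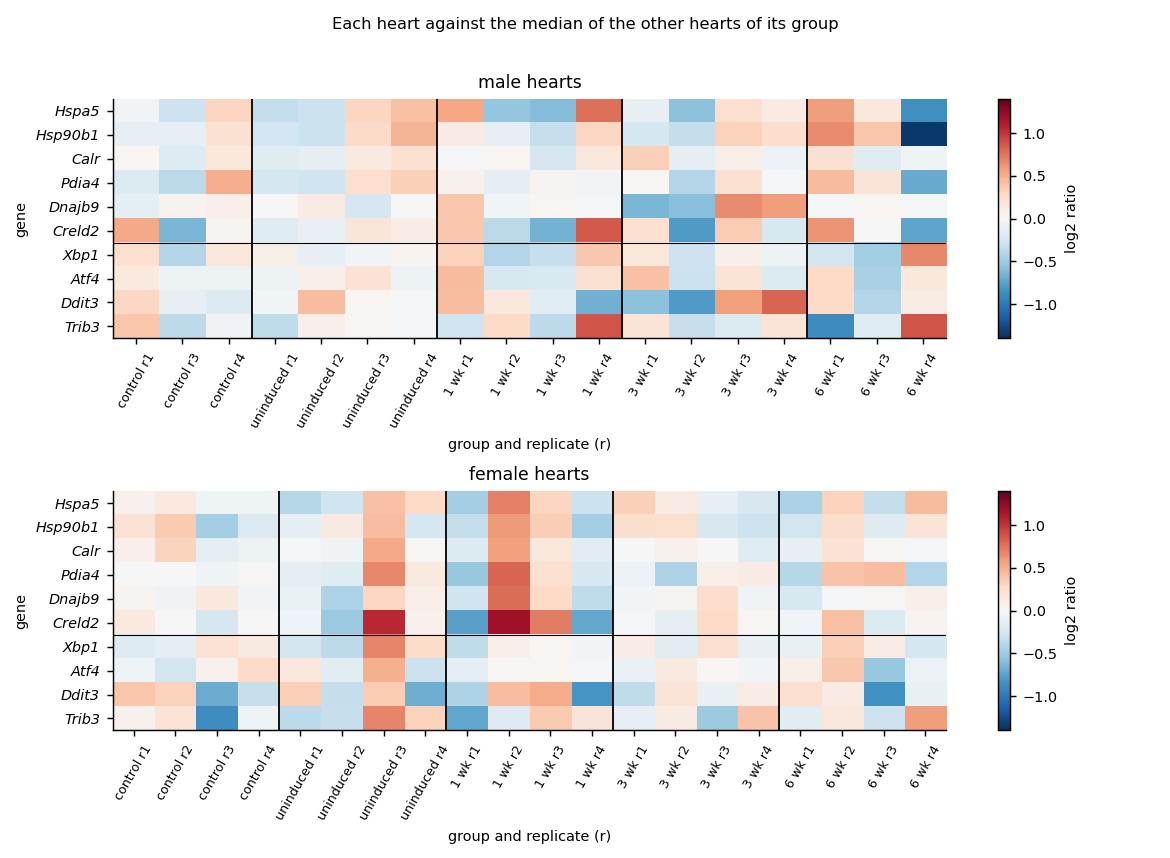
Log2 ratio of each heart to the median of the other hearts of its group (color), for the 10 genes in each sex, group and replicate. Single hearts stand out over most folding genes at once, such as female 1 week replicate 2 (higher) and male 6 week replicate 4 (lower, with *Xbp1* higher).

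Beyond the 10 genes, the lists of the ER machinery changed unevenly at 6 weeks. Among all tested genes at that time, 16.2% were higher and 10.9% lower in males, and 21.7% and 21% in females. Of 15 other ER chaperones and cochaperones, 4 were higher and 1 lower in males and 10 higher and 1 lower in females, with medians of 0.24 and 0.49 against -0.01 and -0.02 over all genes. *Sdf2l1*, an ER cochaperone of BiP, went from 5.57 ± 1.86 to 12.4 ± 0.732 CPM in males (1.14, SE 0.25, adjusted p = 0.00195) and from 5.38 ± 1.21 to 16.8 ± 3.05 in females (1.56, SE 0.28, adjusted p = 0.000188). *Cnpy3*, a chaperone of Toll-like receptors, rose by 0.68 and 0.95, and *Sil1*, the nucleotide exchange factor of BiP, by 0.59 and 0.51. *Cdnf* was lower in both sexes (-0.69 and -0.41).

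Of 12 other disulfide isomerases and ER oxidases, 3 were higher in males and 6 in females, and 0 lower. *P4hb*, which is both a disulfide isomerase and the beta subunit of collagen prolyl 4-hydroxylase, went from 168 ± 11.6 to 333 ± 37.2 CPM in males (0.98, SE 0.13, adjusted p = 1.4e-05) and from 173 ± 8.2 to 348 ± 29.4 in females (1.00, SE 0.13, adjusted p = 3.19e-06). *Pdia5* rose by 1.26 and 1.47 and *Txndc5* by 0.60 and 0.77. Of 15 genes for collagen folding and modification, 7 were higher in males and 11 in females, and 0 and 2 lower, with medians of 0.31 and 0.53. *P3h3*, of the prolyl 3-hydroxylase family, rose by 1.21 and 1.53 and *Crtap*, its family's partner protein, by 1.03 and 0.87. *P4ha3*, a catalytic subunit of prolyl 4-hydroxylase, was at 0 to 0.114 CPM in male and 0 to 0.129 in female controls and at 3.78 to 7.59 and 6.13 to 9.8 CPM at 6 weeks.

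Among genes that bring proteins into and out of the ER, more were higher than lower at 6 weeks. All tested genes were higher in 16.2% and lower in 10.9% in males, and in 21.7% and 21% in females. Of 18 for translocation and signal peptide processing, 6 were higher and 0 lower in males and 7 and 1 in females. *Spcs3*, a signal peptidase subunit, rose by 0.95 and 1.00, and the translocon subunits *Sec61b* and *Sec61a1* rose by 1.04 and 0.92 and by 0.61 and 0.48. Of 18 for ER exit and return, 3 were higher and 1 lower in males and 3 and 2 in females, close to the shares over all genes. The cargo receptor *Tmed3* went from 13.5 ± 0.39 to 35.4 ± 3.97 CPM in males (1.36) and from 17.8 ± 1.59 to 45.1 ± 5.88 in females (1.31), and the KDEL receptors *Kdelr3* and *Kdelr2*, which return chaperones to the ER, rose by 0.92 and 0.90 and by 0.82 and 0.59. Of 14 tested genes of ER-associated degradation, 4 were higher in each sex and 2 and 1 lower. *Os9*, a lectin of that pathway, rose by 0.62 and 0.97, *Edem1* by 0.56 and 0.81 and *Selenos* by 0.46 and 0.52, while *Herpud1* was lower in females (-1.07, adjusted p = 0.000158).

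Of the 6 sensors and their activators, none was called at 6 weeks in males, and *Eif2ak3* (PERK, 0.53) and *Atf6b* (0.38) were higher in females. Of 23 tested targets of the ATF4 and CHOP branch, 4 were higher and 4 lower in each sex, with medians of 0.06 and -0.07. *Nupr1*, a stress-induced chromatin protein, went from 3.01 ± 1.1 to 18.6 ± 3.88 CPM in males (2.48, SE 0.26, adjusted p = 6.09e-07) and from 3.65 ± 0.318 to 26 ± 7.3 in females (2.64, SE 0.19, adjusted p = 6.25e-10). *Asns*, *Slc7a11* and *Slc3a2*, for asparagine synthesis and amino acid transport, were higher in both sexes. *Stc2*, a secreted glycoprotein, fell from 14.6 ± 1.41 to 7.42 ± 1.76 CPM in males (-0.95) and from 16.6 ± 3.77 to 5.1 ± 0.533 in females (-1.58). *Ddit4*, an inhibitor of mTORC1, was lower by -1.12 and -1.02 with groups that overlapped, and *Vldlr* was lower in both sexes. Of the other 3 eIF2α kinases, *Eif2ak2* was higher in females (0.63).

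Among chaperones of other compartments, none was called higher by limma at 6 weeks. Of 13 cytosolic heat shock genes, 0 were higher and 3 lower in each sex, namely *Hsph1* (adjusted p = 0.0213), *Hspa4* (-0.46) and *Hsp90ab1* (-0.46) in males and *Bag3* (-0.29), *Cryab* (-0.37) and *Hsf1* (-0.48) in females. The share of all genes lower was 10.9% in males and 21% in females, near that of this list in females. Of 10 mitochondrial chaperones and proteases, 0 were higher and 4 and 3 lower. *Hspd1* (mitochondrial Hsp60) went from 341 ± 17.9 to 173 ± 69.3 CPM in males (-1.07) and from 300 ± 32.1 to 228 ± 25 in females (-0.40, with overlap), and *Dnaja3* was lower by -0.54 and -0.37.

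Markers of the other cell types moved in the same hearts. Over all tested genes at 6 weeks, 16.2% were higher and 10.9% lower in males, and 21.7% and 21% in females. At 6 weeks *Col3a1*, *Col1a1* and *Col1a2*, collagens of fibroblasts, differed from control by 3.72, 2.99 and 2.52 in males and 4.08, 3.25 and 3.12 in females, and 7 and 9 of 10 fibroblast markers were higher. All 10 macrophage markers were higher in both sexes, led by *C1qa* (2.20 and 2.50), *C1qb* (2.33 and 2.34) and *Lyz2* (2.07 and 2.57). Of the plasma cell markers, 5 of 8 in males and 4 of 9 in females were higher, led by *Sdc1* (2.77 and 2.93), *Igkc* (2.34 and 3.25) and *Jchain* (1.73 and 2.54). In males 1 of the 8 was lower. The 1 neutrophil marker called was *Csf3r* (1.36 and 1.35). In males the other 2 of the 3 tested neutrophil markers were not called, and the median of the 3 was -0.63. Cardiomyocyte markers were lower in 2 and 5 of 10, with *Ckm* at -0.68 and -1.01 and *Ryr2* at -0.90 and -0.63, and endothelial markers in 4 and 6 of 10, with *Kdr*, *Tie1* and *Cdh5* at -1.18, -0.51 and -0.63 in males and -0.80, -0.81 and -0.65 in females. Their part in the changes of the ER genes was not tested.

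**Figure D5:**
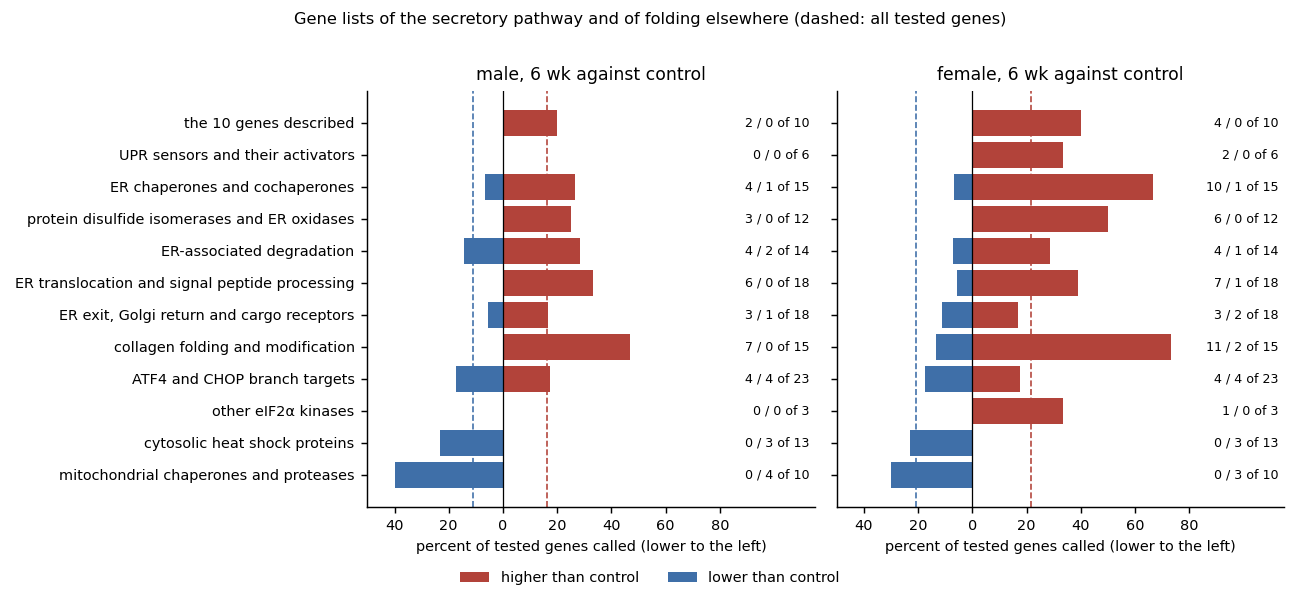
Percent of the tested genes of each list called higher (red, to the right) and lower (blue, to the left) at 6 weeks against control, males and females apart, with the counts as higher / lower of n and dashed lines for all tested genes. Other ER chaperones reach 10 of 15 higher in females against 21.7% of all genes, and cytosolic heat shock genes have 0 higher in either sex.

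The 37 genes whose promoter windows hold the ERSE letters were examined as a group. Of 19 tested, 1 was higher and 1 lower in males at 6 weeks and 4 were higher and 4 lower in females, with medians of -0.05 and 0.17. The calls over all genes were 16.2% upward and 10.9% downward for males and 21.7% and 21% for females, so that these counts are at or below the shares of all genes. The genes called in both sexes were *Calr* (higher) and *Acacb*, an acetyl-CoA carboxylase of fatty acid metabolism (lower, -0.53 and -0.82).

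By the root mean square difference over 8 log2 fold changes (uninduced, 1, 3 and 6 weeks against control in both sexes) among 16627 genes, those most like *Pdia4* were *Vps13c* (0.121), *Ddr2* (0.125), *Peli3* (0.127), *Gng2* (0.132) and *Enpep* (0.137). Those most like *Xbp1* were *Gm6682* (0.0624), *Tram2* (0.0937), *B020010K11Rik* (0.0946), *Slc10a3* (0.0961) and *Daglb* (0.11). The 8 values share their control hearts within a sex, and the likeness is a description of these libraries only.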

How the data were processed

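The authors aligned reads to GRCm39 and counted them per gene with featureCounts. The deposited values, named CPM, are a signal per gene (unit: reads scaled with 1 factor per library, columns summing to 817395 to 1196278). All values (100%, within 0.001) were whole reads times the worth of 1 read, so that reads could be recovered. Groups followed the labels. The members and gene lists were chosen with earlier results of these data known. In each sex, log2(CPM + 0.5) of all 5 groups was fitted with limma 3.58.1 (trend) in R 4.3.3, for genes at 0.5 or more in at least 3 libraries. Alternatives were edgeR 4.0.16 quasi-likelihood and DESeq2 1.42.0 on recovered reads, other pseudocounts, filters and scalings, a 2-group fit, a replicate block, each replicate number left out, 4 single libraries left out (chosen after seeing the data), the 2 unplaced libraries placed either way, and calls with a minimum fold. The scripts were tested on simulated data. Every member was named, and from each list up to 3 genes with the largest 6 week change called in both sexes, and 5 genes most like the member that changed most among folding genes and among regulators. Other genes were named after their values were seen. List counts and medians are descriptions without a test of the list.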

Additional observations from a re-analysis of the deposited data

Results flagged for a closer look

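Of 80 groups of 4 hearts examined, 3 had a heart far from the others, and chance gives about 1 in 20. *Calr* was 445 CPM in female uninduced replicate 3, with the others at 301 to 312. *Dnajb9* was 28.5 CPM in male 1 week replicate 1, with the others at 21.5 to 22.1. *Ddit3* was 16 CPM in male uninduced replicate 2, with the others at 11.8 to 12.1. For *Atf4* at 1 week every male heart was above the control mean (log2 fold change 0.18) and every female heart below it (log2 fold change -0.0712). For *Trib3* at 3 weeks every male heart was above it (0.22) and every female heart below it (-0.37). None of these differences was called, and the difference between the sexes was not tested.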

How the results depend on the processing

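Single genes were followed over the alternative fits, 18 in males and 16 in females. The minimum fold was applied to the counts of calls only and is not among these fits. Of 19 calls on single genes, 6 held in every alternative fit (in females *Pdia4* and *Xbp1* at 1 week and *Hsp90b1*, *Pdia4*, *Calr* and *Xbp1* at 6 weeks), and 13 were lost in 1 or more. Of 320 alternative values of called genes, 272 kept the call, 48 did not and 0 turned sign. Of 3080 values of uncalled genes, 45 became called. Counts of the 10 genes called when libraries were left out ranged, at 1, 3 and 6 weeks, from 0 to 2, 0 to 3 and 1 to 3 in males against control (1, 2 and 2 with all hearts), from 0 to 2, 0 to 2 and 1 to 2 in males against uninduced (1, 1 and 1), from 2 to 3, 0 to 3 and 4 to 6 in females against control (3, 3 and 4), from 0 to 1, 0 to 1 and 0 to 3 in females against uninduced (0, 1 and 0), and from 0 to 1 in uninduced against control females. With the 2 unplaced male libraries placed by titles and tags, the male counts were 0 at 3 and 6 weeks against control and 0 at every week against uninduced, and *Xbp1* at 6 weeks was 0.44 (adjusted p = 0.314). That placement puts *Il11* at 511 CPM in a control and at 0.597 CPM in a 6 week heart. The male *Xbp1* calls at 6 weeks, against control and against uninduced, were kept in the other 17 of 18 alternative fits. With the libraries placed by descriptions, the counts were 2, 3 and 3 at 1, 3 and 6 weeks against control and 2 at 3 weeks against uninduced. Against uninduced males at 1 week, the count was 0 with pseudocount 2 or edgeR and 2 with median-of-ratios scaling, DESeq2 or a 2-group fit, and at 3 weeks it was 2 with DESeq2 or a 2-group fit. A 2-group fit gave 1 in males at 6 weeks against control and 0 in females at 3 weeks against uninduced. DESeq2 gave 1 in males at 3 against 1 week and 1 in uninduced against control females. With a log2 fold change of at least 1 required, every count was 0 except 1 in females at 6 weeks against control. The correlation of deviations between hearts with the same replicate number was -0.134 to 0.256 in males (mean 0.0132, over 0.1 in 4 of 33 pairs) and -0.342 to 0.563 in females (mean 0.0255, over 0.1 in 12 of 40), so that the numbers were not taken to pair the hearts. The replicate block gave 0 in males at 1 week against uninduced and 2 at 3 weeks against uninduced. In males at 1 week against control it left 1 call but of another gene, *Xbp1* (0.41, adjusted p = 0.0314) in place of *Dnajb9* (-0.40, adjusted p = 0.0789). The causes of these changes were not tested, except that fewer hearts enter where libraries are left out.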

Other observations

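The 2 male libraries with conflicting labels were in no comparison. The library titled control and described as 6 weeks had *Il11* at 511 CPM, *Hspa5* at 449, *Hsp90b1* at 215, *Pdia4* at 44.9, *Calr* at 295, *Dnajb9* at 41.6, *Creld2* at 11.2, *Xbp1* at 88.9, *Atf4* at 68.6, *Ddit3* at 6.69 and *Trib3* at 2.83 CPM. The library titled 6 weeks and described as control had *Il11* at 0.597 CPM, *Hspa5* at 483, *Hsp90b1* at 274, *Pdia4* at 25.9, *Calr* at 265, *Dnajb9* at 30.6, *Creld2* at 11.1, *Xbp1* at 47.9, *Atf4* at 58.4, *Ddit3* at 15.3 and *Trib3* at 3.1 CPM. By *Il11*, the first library lay within the 336 to 819 CPM of the induced males. The second lay near the 0 to 0.147 CPM of the male controls, so that *Il11* goes with the descriptions. The male *Xbp1*, *Calr* and *Pdia4* calls against control were lost when these libraries were placed by title and kept when placed by description.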
